A study of Mus musculus with 36 samples.

Results

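The 9 genes described here encode transcriptional regulators of neural progenitors. They are the proneural basic helix-loop-helix (bHLH) factors Neurog1, Neurog2, Neurod1 and Atoh1, the oligodendrocyte lineage factors Olig1 and Olig2, the Notch-responsive repressors Hes1 and Hes5, and Id4, an inhibitor of bHLH factors that itself cannot bind DNA. They were chosen by name among 20807 autosomal protein-coding genes, and all CpGs in the gene body and within 3 kb on each side were examined in the mm10 build. These 9 windows hold 2658 CpGs in the reference sequence, of which 1614 were read at least 5 times in at least 1 embryo and 825 in all 35 embryos analysed. DNA methylation was measured in individual E11.5 mouse brains, from the rostral forebrain to the caudal hindbrain, by reduced representation bisulfite sequencing after MspI and TaqI digestion. An oxidation step before the bisulfite conversion removed 5-hydroxymethylcytosine from the signal, so that a methylation level is the percentage of reads at a CpG that carried 5-methylcytosine (5mC).

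All embryos came from matings of heterozygous 129S6.cg Tet1<tm1Koh> parents. The allele carries a cassette at the Tet1 start codon, so that no full-length transcript is made, and it is present in every cell of the animal. Each embryo carried 0 (WT), 1 (HET) or 2 (KO) copies of the allele. The dams were kept on folic acid (FA) diets with 30, 3 or 0.1 ppm, of which 3 ppm was the control, 30 ppm an excess and 0.1 ppm a depletion, and all 3 diets contained the antibiotic succinyl sulfathiazole. By the deposited labels, the 30 ppm group held 3 WT, 5 HET and 6 KO embryos, the 3 ppm group 4 WT, 3 HET and 5 KO embryos, and the 0.1 ppm group 2 WT, 2 HET and 5 KO embryos, from 12 litters with 4 on each diet. A further HET library of the 0.1 ppm diet, which the study set aside, entered no result except where stated. The brains were not sorted, so that a change in the share of cells of a type and a change of methylation inside cells cannot be told apart.

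The 35 libraries held between 25648249 and 197322320 CpG calls each, with a median coverage of 16.9 reads per CpG and a range of 12.1 to 61.5. All 36 deposited libraries, the one set aside included, were checked at an intronic CpG of Tet1. There 7 WT libraries lay between 0 and 7.32%, 11 HET libraries between 8.33 and 69.2%, and 15 KO libraries between 69.6 and 100%. The 3 other libraries went against their labels. A level of 45% (20 reads, 95% Wilson interval 25.8 to 65.8%) was seen in the library labelled KO, 30 ppm, replicate 1. Levels of 36% (33 reads, interval 22.2 to 53.4%) and 40.0% (15 reads, interval 19.8 to 64.3%) were seen in those labelled WT, 30 ppm, replicate 2 and WT, 0.1 ppm, replicate 2. The study's own list of embryos gives the first of these as HET, against its deposited label, and the other 2 as WT. All 3 were kept under their deposited labels, and the calls of the pooled Olig1 tile and of single CpGs are also given without them. The ranges above were formed without these 3, and they nearly meet. HET, 0.1 ppm, replicate 1 read 69.2% (13 reads, interval 42.4 to 87.3%), and HET, 30 ppm, replicate 1 read 8.33% (24 reads, interval 2.3 to 25.8%). This CpG therefore does not settle every label.

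Proneural factors bind E-boxes as dimers with E-proteins and drive neural progenitors out of the cell cycle and towards a neuronal fate, whereas HES repressors, induced by Notch, hold their genes down and keep cells in the progenitor state. ID proteins take E-proteins away from this network, and OLIG factors specify motor neuron and oligodendrocyte progenitors. Many promoters of developmental regulators of this kind lie in long CpG islands that stay free of methylation in most tissues. TET1 oxidises 5mC as the first step of active demethylation. The comparison of KO with WT embryos asks whether these regions gained methylation without TET1, and the diets ask whether maternal FA changed that outcome.

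The stretch with the largest genotype difference among the 9 genes lies upstream of Olig1, outside any annotated gene, at chr16:91268461-91268720 (GRCm38.p6, plus strand). It is shown first because the main result rests on it. Capitals mark the 8 CpGs read in most embryos, at positions -1276, -1264, -1237, -1230, -1228, -1151, -1126 and -1084 from the Olig1 start.
Olig1 upstream: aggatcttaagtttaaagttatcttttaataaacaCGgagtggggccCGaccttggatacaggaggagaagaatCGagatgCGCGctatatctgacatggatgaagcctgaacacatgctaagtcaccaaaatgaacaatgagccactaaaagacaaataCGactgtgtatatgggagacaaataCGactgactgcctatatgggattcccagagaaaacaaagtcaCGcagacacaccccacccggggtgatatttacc

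It holds 9 CpGs in 260 bases. The promoters of Atoh1, Hes5 and Id4 are shown for contrast (RefSeq promoters on GRCm38.p6, the 250 bases before the start). They hold 14, 32 and 35 CpGs, of which the 5, 25 and 32 in capitals were read at least 5 times in all 35 embryos.
Atoh1 promoter: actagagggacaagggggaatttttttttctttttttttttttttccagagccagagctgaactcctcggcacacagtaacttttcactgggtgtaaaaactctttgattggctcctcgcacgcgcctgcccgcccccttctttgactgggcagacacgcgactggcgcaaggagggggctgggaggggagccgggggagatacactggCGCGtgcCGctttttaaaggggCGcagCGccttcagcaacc
Hes5 promoter: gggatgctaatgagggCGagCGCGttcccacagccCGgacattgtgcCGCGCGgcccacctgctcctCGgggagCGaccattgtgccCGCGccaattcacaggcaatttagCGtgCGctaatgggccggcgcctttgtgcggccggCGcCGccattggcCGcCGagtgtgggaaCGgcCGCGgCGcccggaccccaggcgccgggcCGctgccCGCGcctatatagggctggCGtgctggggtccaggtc
Id4 promoter: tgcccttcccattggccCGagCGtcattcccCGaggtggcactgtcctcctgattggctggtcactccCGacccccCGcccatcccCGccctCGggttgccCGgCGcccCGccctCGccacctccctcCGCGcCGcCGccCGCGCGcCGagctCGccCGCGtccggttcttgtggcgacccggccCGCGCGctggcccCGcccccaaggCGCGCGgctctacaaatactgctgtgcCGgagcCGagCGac

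The last 100 coding bases of Neurod1 (chr2:79453967-79454066, minus strand) and 80 bases downstream of Olig2 (chr16:91231067-91231146, plus strand) are printed next. They hold the CpG of each gene with the largest KO minus WT difference among those read in all embryos. Neither CpG was called between KO and WT. Capitals again mark CpGs read in all 35 embryos.
Neurod1 coding: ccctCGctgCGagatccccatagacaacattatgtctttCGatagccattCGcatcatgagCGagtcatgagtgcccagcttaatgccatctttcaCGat
Olig2 downstream: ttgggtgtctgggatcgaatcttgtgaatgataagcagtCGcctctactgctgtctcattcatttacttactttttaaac

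Among the 7 genes with a RefSeq promoter table entry (all except Olig1 and Hes1), a window from 250 bases before to 50 after the start held the E-box CANNTG in 3, against 68.0% of all 15687 promoters, when both strands were read. The N-box CACNAG, which HES repressors bind, was found in 4 (41.7% of all promoters), the class C site CACGNG in 3 (32.7%) and the RBPJ core TGGGAA, the Notch effector's motif, in 2 (24.1%). Hes5 held 2 of the RBPJ cores and Id4 held 1. The MspI site CCGG was present in all 7 (64.5% of all promoters), and the TaqI site TCGA in 0 (24.3%). These motifs may overlap one another, and their letters describe the sequence only.

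All 9 promoter cores, defined as the CpGs within 500 bp of the gene start, were nearly free of methylation in every genotype. Among the proneural genes, the mean core level in WT embryos was 0.68% ± 0.31 (SD, n = 9) at Neurog1, 0.63% ± 0.31 at Neurog2, 0.65% ± 0.88 at Neurod1 and 0.80% ± 0.53 at Atoh1. It was 0.67% ± 0.31 at Olig1, 0.98% ± 0.76 at Olig2, 0.77% ± 0.29 at Hes1, 0.82% ± 0.20 at Hes5 and 0.67% ± 0.18 at Id4. In KO embryos the same cores ranged from 0.33% ± 0.46 at Neurod1, where 4 CpGs were shared, to 1.06% ± 0.76 at Olig2, where 6 were shared (n = 16). These levels were those of most genes, since the median core over 11965 genes was 0.68% in WT. The KO minus WT difference of the 9 cores lay between -0.28 points at Neurod1 and 0.21 points at Neurog2, and the highest and lowest embryos of WT and KO overlapped at every core.

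**Figure D1:**
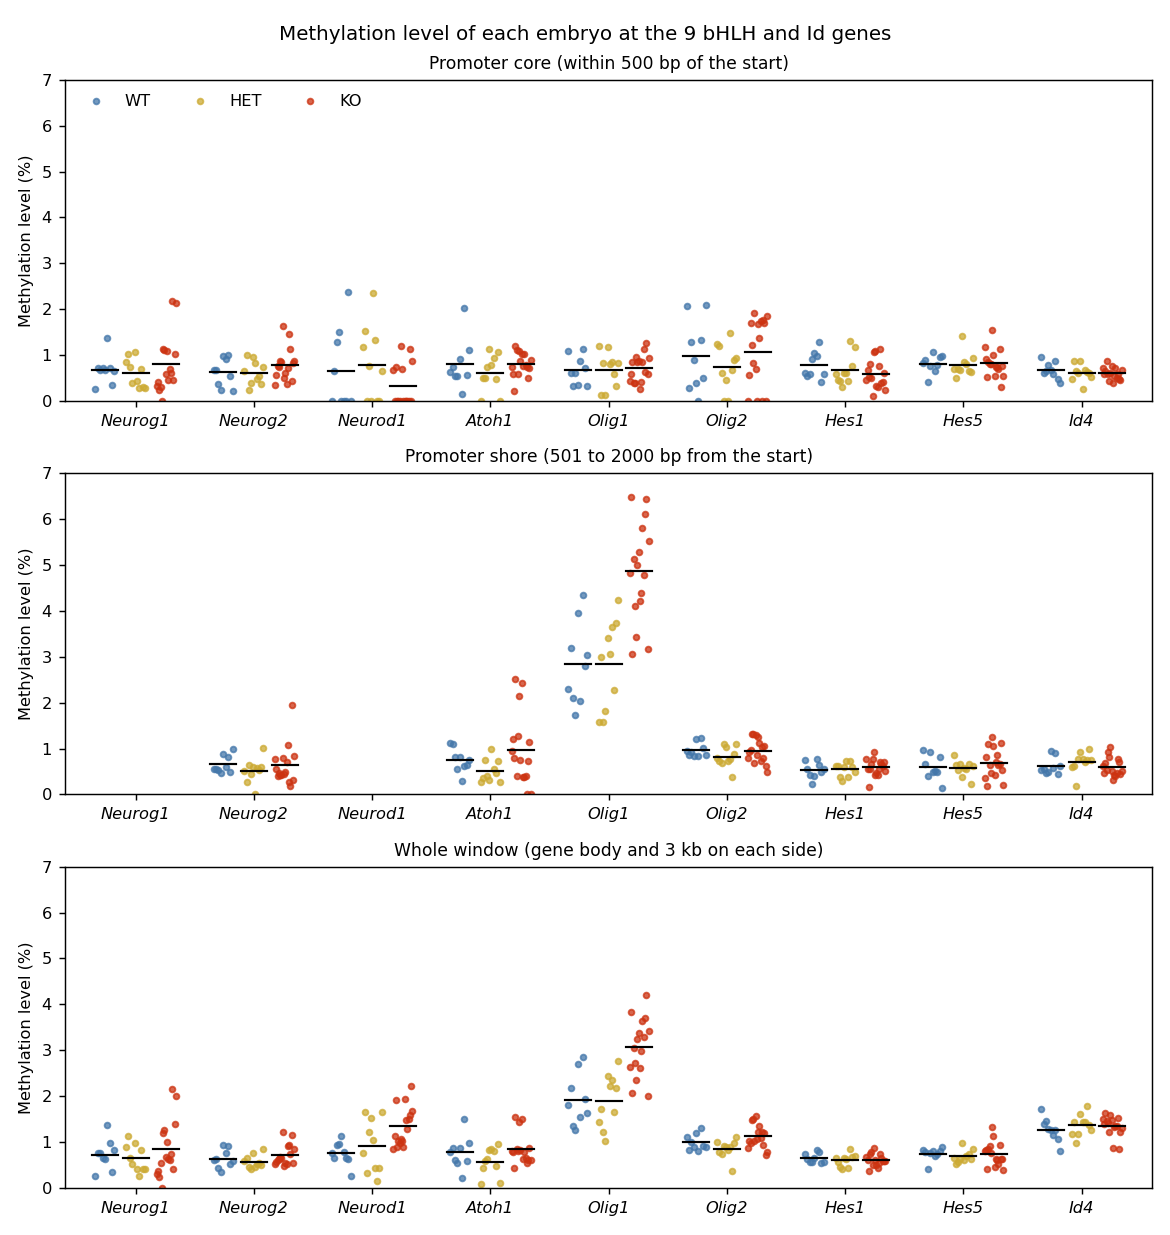
Methylation level (%) of each embryo over the promoter core, the promoter shore and the whole window of each gene. Points are embryos of the 3 genotypes over all diets and bars are genotype means. Regions with fewer than 3 CpGs read in all 35 embryos are empty. Only Olig1 rises above 3% on average, in the shore and window of KO embryos.

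The low levels extended beyond the cores, as far as CpGs were read in all embryos. Of the 825 CpGs read in all embryos, 818 lay under 5% in WT, 819 in HET and 817 in KO, and the median CpG stood at 0.60% in WT and 0.64% in KO. By annotation, the median WT level was 0.56% in 196 CpGs of the upstream flanks, 0.61% in 111 UTR CpGs, 0.66% in 327 coding CpGs, 0.51% in 93 intronic CpGs and 0.61% in 98 CpGs of the downstream flanks. Over these shared CpGs the windows averaged 0.64 to 1.92% in WT, whereas the median window over 16423 genes averaged 18.2%. The shared CpGs do not cover the windows evenly: at Neurog1 they are 22 of the 205 CpGs of the window, and at Neurog1, Neurog2, Atoh1 and Olig1 none lies in the outer part, more than 2000 bp from the start. By the same CpGs, the windows of the 9 genes ranked low in that distribution, from Neurog2, below which 2.81% of genes lay, to Olig1, below which 10.8% lay.

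Of the CpGs read in most embryos, few were methylated. Among CpGs read in at least 24 embryos, 21 reached a mean of 10% in WT or KO and 1170 did not. The 21 comprised 8 upstream of Olig1, 6 downstream of Neurog1 between 3926 and 4199 bp from its start, 5 at Id4 (2 upstream, 2 in the UTR and 1 downstream), 1 upstream of Atoh1 and 1 downstream of Olig2, and none at Neurog2, Neurod1, Hes1 or Hes5. They lay in CpG-poor sequence, with a median of 4 CpGs (range 2 to 7) within 100 bases, against a median of 20 (range 2 to 37) around the other 1170. The mean was higher in KO than in WT embryos at 19 of the 21, with a median difference of 15.2 points. This median leans on the 8 neighbouring CpGs of the Olig1 stretch, whose median difference was 19.5 points. It was 7.28 points at Neurog1 and 6.52 points at Id4, and the single CpGs of Atoh1 and Olig2 differed by 17.6 and 7.87 points. Over all autosomes, 76.0% of 833438 CpGs chosen by the same 2 limits were higher in KO, with a median difference of 2.86 points. At Id4, 19 of 174 CpGs read in at least 3 WT embryos averaged 20% or more in WT. These CpGs were grouped by their level after the values were seen, and their differences are a description.

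**Figure D2:**
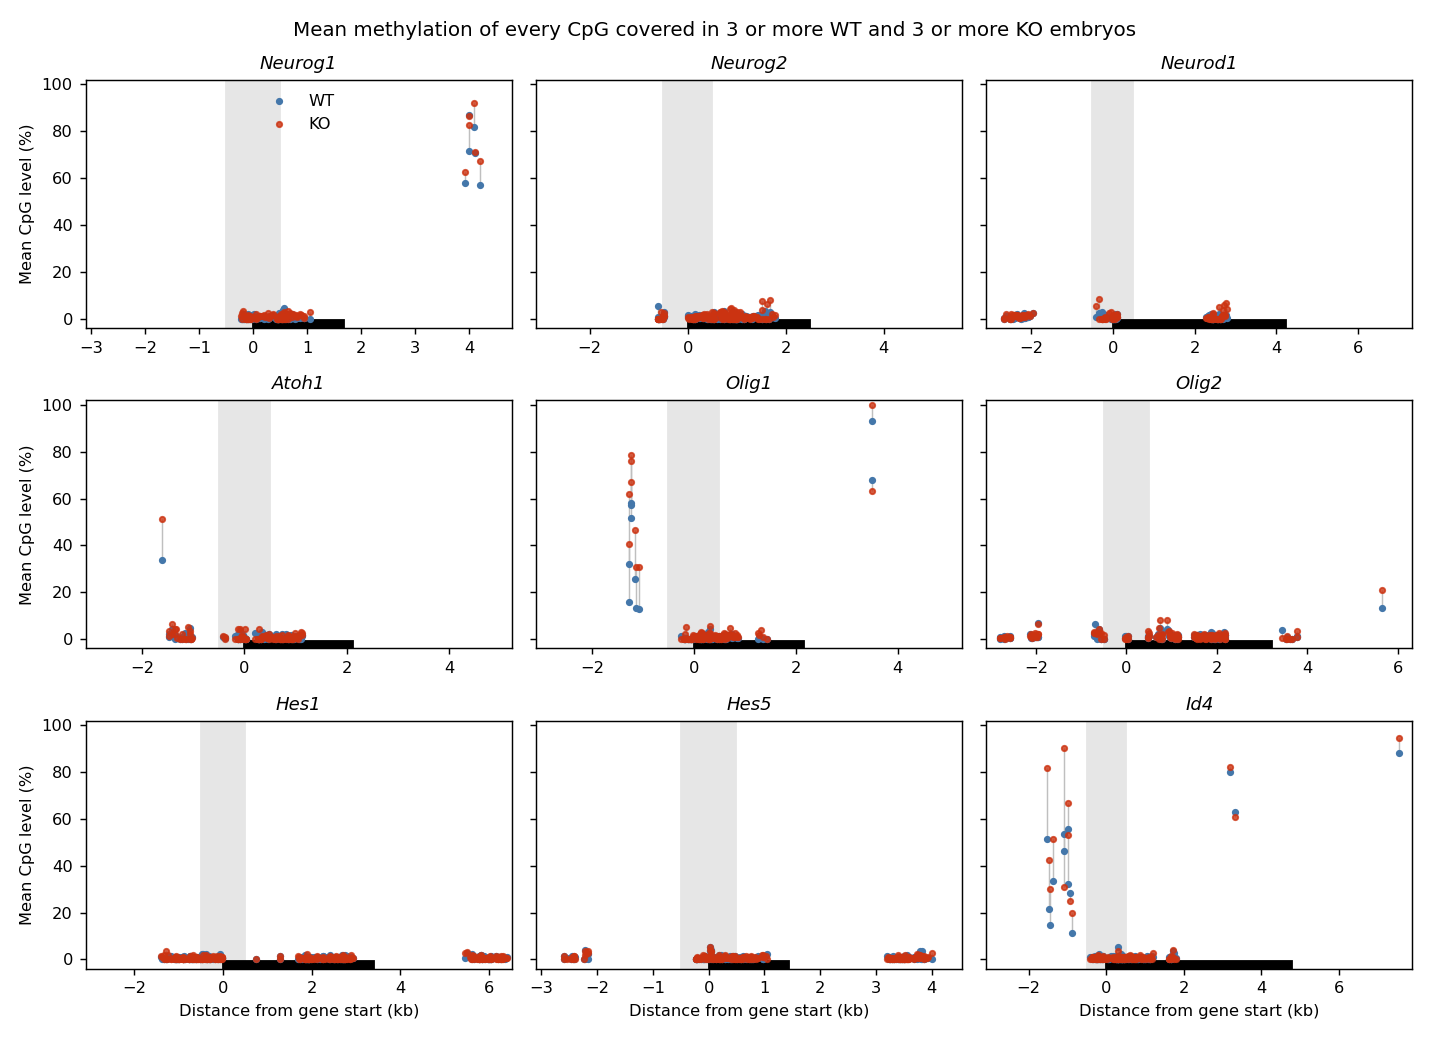
Mean methylation level (%) of single CpGs in WT and KO embryos against the distance from the gene start (kb), for CpGs read in at least 3 embryos of each genotype. Grey lines join the 2 means of a CpG, the grey band is the promoter core and the black bar is the gene body. CpGs near 0% fill the gene bodies, and the methylated CpGs stand apart upstream of Olig1, Atoh1 and Id4, downstream of Neurog1, Olig1 and Olig2, and at the far end of Id4.

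Olig1, a bHLH factor of the oligodendrocyte lineage, carried the clearest genotype difference. Its upstream CpGs were partly methylated in WT and HET brains and more so in KO brains, whereas its core was not. The 1 kb tile at chr16:91268001-91269000, from -1771 to -772 bp, holds 3 CpGs read in every embryo, at -1276, -1264 and -1237. In WT embryos the tile stood at 27.9, 30.2 and 40.0% on the 30 ppm diet, at 38.4, 25.7, 48.3 and 30.5% on the 3 ppm diet, and at 27.3 and 30.0% on the 0.1 ppm diet. HET embryos gave 30.6, 40.6, 31.6, 48.3 and 41% on 30 ppm, 27.0, 40.4 and 34% on 3 ppm, and 30.0 and 39.1% on 0.1 ppm. KO embryos gave 37.3, 51.4, 45, 58.3, 64.2 and 70.5% on 30 ppm, 53.3, 63.5, 69.2, 46.2 and 62.9% on 3 ppm, and 57.8, 57.8, 65.6, 60.4 and 60.0% on 0.1 ppm. WT and HET embryos covered nearly the same range, 13 of 16 KO embryos lay above the highest WT embryo, and the lowest KO value came from the library labelled KO, 30 ppm, replicate 1, whose Tet1 level went against its label and which the study's list gives as HET. Between 29 and 320 calls, summed over the 3 CpGs, stood behind each value, so that a read spanning more than 1 of these CpGs counted more than once. At -1264 alone, 9 to 116 reads stood behind each WT embryo.

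The genotype means were 33.1% ± 7.5 in WT (n = 9), 36% ± 6.6 in HET (n = 10) and 57.7% ± 9.1 in KO (n = 16). The KO minus WT difference, averaged over the diets, was 25.6 points. In a quasi-binomial logistic model fitted to all autosomal tiles with diet as a covariate, its Benjamini-Hochberg adjusted p was 6.63e-08. A tile was called when its adjusted p was under 0.05 and its difference at least 10 points, and over all diets this was the only tile of the 9 windows that was called, or that varied enough among embryos to be tested (SD of at least 2 points). Over the genome 14.2% of tested tiles were called. An exact permutation of the genotype labels within diets gave p = 1.80e-05 for the tile (two-sided; the smallest possible is 4.50e-06). Without the 3 libraries that went against their labels the difference was 26.8 points (adjusted p = 2.02e-08, exact permutation p = 1.26e-04). The KO embryos labelled norm, 7 in number, lay at 53.3 to 70.5%, those labelled NTD, 5 in number, at 45 to 65.6%, and the 4 labelled inHB at 37.3 to 58.3%. The 37.3% came from KO, 30 ppm, replicate 1, whose Tet1 level went against its label, and the next lowest inHB value was 46.2%. Whether the level differed between these labels was not tested.

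**Figure D3:**
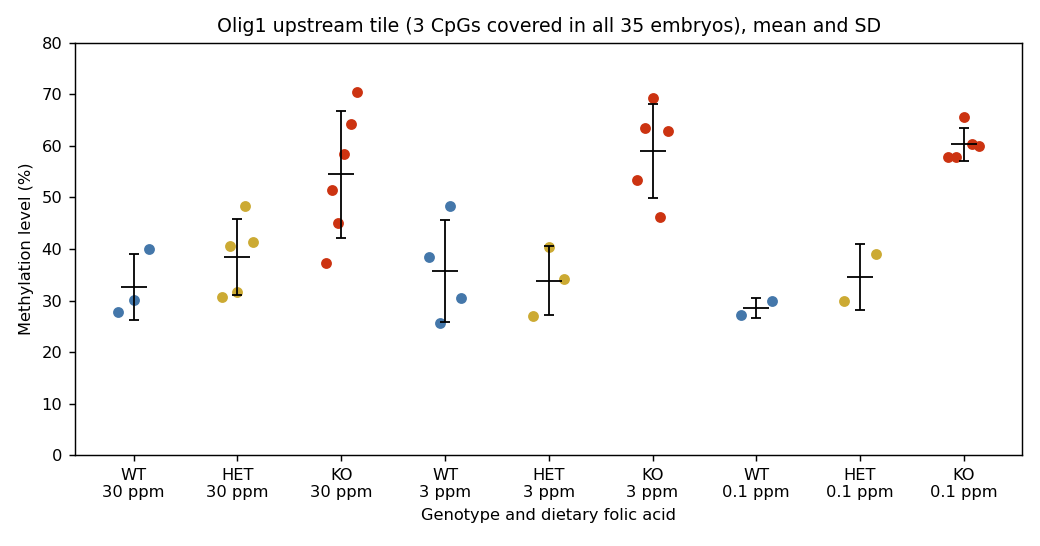
Methylation level (%) of the Olig1 upstream tile in each embryo, by genotype and dietary FA (ppm). Points are embryos, horizontal bars are group means and error bars are SD. KO groups average 54.5, 59.0 and 60.3% and WT groups 32.7, 35.7 and 28.6% on the 30, 3 and 0.1 ppm diets.

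The difference was present on each diet. On 30 ppm it was 19.4 points over 8 CpGs (adjusted p = 0.0186 in the quasi-binomial model, with 5.66% of all tested tiles called), on 3 ppm 23.3 points over 3 CpGs (adjusted p = 1.52e-04, 16.3% called) and on 0.1 ppm 22.8 points over 8 CpGs (adjusted p = 0.0011, 11.2% called). On the 30 ppm diet the call was lost without WT replicate 1 (17.8 points, adjusted p = 0.161) and without KO replicate 5 (18.1 points, adjusted p = 0.0548). In exact permutation tests within a diet, over the 3 shared CpGs, p was 0.0476 on 30 ppm, 0.0238 on 3 ppm and 0.0476 on 0.1 ppm, where the smallest possible values were 0.0119, 0.0079 and 0.0476. Without the libraries that went against their labels the difference was 22.8 points on 30 ppm (adjusted p = 7.25e-06) and 19.2 points on 0.1 ppm (adjusted p = 0.0173), the latter against 1 WT embryo, which the model takes to vary like the others. The KO minus WT difference did not differ detectably between diets: the change from 3 to 30 ppm was -1.50 points (adjusted p = 0.998 for the interaction) and the change from 3 to 0.1 ppm was 8.38 points (adjusted p = 0.982). These changes rest on the 3 shared CpGs, over which the difference was 21.8 points on 30 ppm, 23.3 points on 3 ppm and 31.7 points on 0.1 ppm. HET embryos exceeded WT embryos by 2.58 points over 8 CpGs (adjusted p = 0.692, with 0.259% of tested tiles called), and the exact permutation over the 3 CpGs gave p = 0.319. KO exceeded HET embryos by 22.3 points (adjusted p = 9.83e-06, with 8.5% of tested tiles called).

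CpG by CpG, KO means were the highest along the whole stretch printed above. From the far end towards the gene, the WT, HET and KO means were 15.8, 17.1 and 40.6% at -1276, 31.9, 38 and 61.9% at -1264, and 58.2, 64.6 and 78.4% at -1237. They were 57.4, 64.7 and 76.2% at -1230 and 51.8, 52.8 and 67.2% at -1228, the closely spaced pair in CGCG. Nearer the gene they were 25.7, 23.1 and 46.7% at -1151, 13.0, 13.0 and 30.8% at -1126, and 12.7, 21.6 and 30.6% at -1084. The level was highest in the middle of the stretch in all 3 genotypes. The last 5 were missing from 1 embryo, KO, 3 ppm, replicate 4, and so entered no pooled test of KO against WT.

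**Figure D4:**
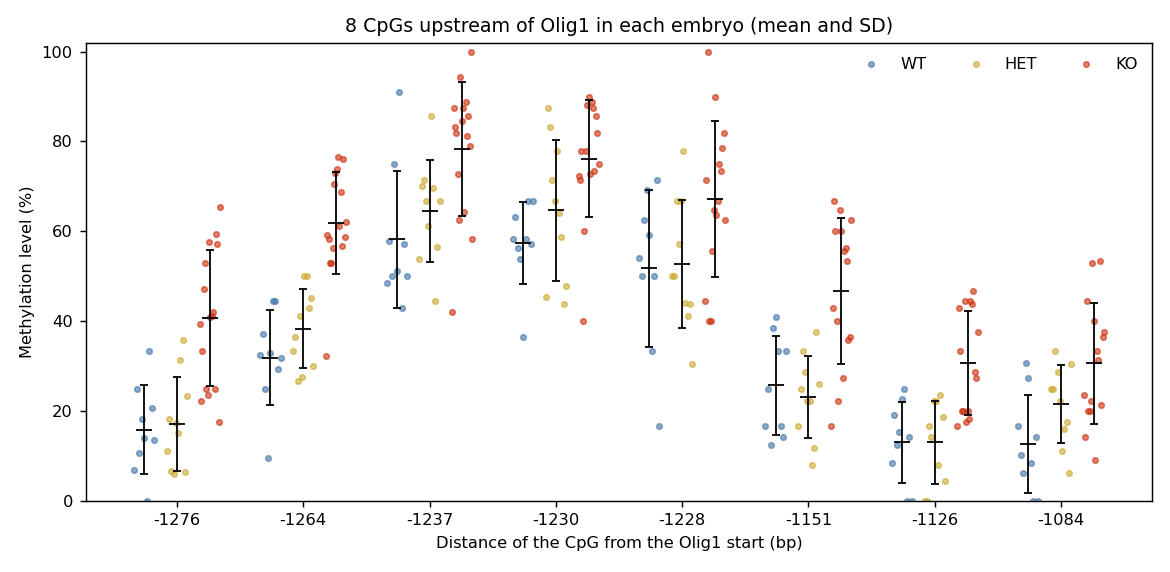
Methylation level (%) of 8 single CpGs upstream of Olig1, ordered by their distance (bp) from the gene start. Points are embryos, horizontal bars are genotype means and error bars are SD. KO means exceed WT means by 15.4 to 30.0 points.

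Tested singly among all autosomal CpGs, the 3 shared Olig1 CpGs were called. Their KO minus WT differences were 24.8 points at -1276 (adjusted p = 6.89e-07 in the quasi-binomial model), 31.7 points at -1264 (adjusted p = 1.55e-08) and 20.7 points at -1237 (adjusted p = 1.75e-04). Without the 3 libraries that went against their labels they stayed called, at 23.3, 36.5 and 19.2 points. No other CpG of the 195 tested in the 9 windows was called, while 11.6% of tested CpGs were called over the genome. Without KO, 3 ppm, replicate 4, the embryo that lacks 5 CpGs of the stretch, 8 CpGs were called. At -1264, 15 of 16 KO embryos lay above all WT embryos. When every CpG had to be read at least 10 times, no Olig1 CpG of this stretch was left to test in the pooled comparison.

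The same 3 CpGs are part of the Olig1 shore. The Olig1 shore, which runs from the edge of the core to 2000 bp, rose from 2.83% ± 0.89 in WT to 4.86% ± 1.08 in KO over 40 CpGs, with HET at 2.83% ± 0.97. Its lowest, median and highest embryos were 1.73, 2.80 and 4.35% in WT, 1.57, 3.02 and 4.24% in HET, and 3.07, 4.91 and 6.48% in KO, so that the groups overlapped. With the 3 tile CpGs taken out, the remaining 37 stood at 0.92% ± 0.32 in WT, 0.88% ± 0.51 in HET and 1.2% ± 0.49 in KO.

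With the regions as defined here, none of the 9 genes had a region called between KO and WT over all diets. Each gene had a window, a core, a shore and an outer part, and 30 of the 36 regions held at least 3 CpGs read in every WT and KO embryo, but none reached the SD of 2 points needed for the test. Of the regions tested over all genes, 6.91% of windows, 27.8% of cores, 24.1% of shores and 8.25% of outer parts were called. Without that SD filter, an alternative added after the data were seen, 5 of the 30 regions were higher in KO at an adjusted p under 0.05 and 0 were lower, none of them by 10 points, where over all genes 0.0425% of windows, 0.208% of cores, 0.177% of shores and 0.0601% of outer parts were lower. They were the Olig1 shore (2.01 points, adjusted p = 1.42e-05 in the quasi-binomial model), the Olig1 window (1.17 points, adjusted p = 2.92e-04), the Neurod1 outer part (0.76 points, adjusted p = 7.77e-04), the Neurod1 window (0.61 points, adjusted p = 0.0029) and the Olig2 outer part (0.90 points, adjusted p = 0.0062). Without KO, 3 ppm, replicate 4 the Olig1 shore difference was 3.43 points and that of the window 2.04 points. With the core widened to 1000 bp and the shore to 3000 bp, the Olig1 shore was called at 25.6 points (adjusted p = 1.06e-07). That is the difference of the upstream tile over its 3 shared CpGs, so it repeats the tile and is no separate result. With a minimum of 10 reads per CpG the Olig1 shore and window (adjusted p = 0.446 and 0.303) and the Neurod1 window (adjusted p = 0.0675) no longer passed, and with the wider core and shore the Olig2 outer part did not (adjusted p = 0.0724). Over the alternatives that did not leave out a single embryo, the Olig2 outer difference ranged from 0.55 to 2.04 points and the Olig1 window difference from 0.15 to 1.60 points. Over all genes 41.9% of shores, 31.5% of windows, 51.1% of outer parts and 20% of cores were higher by this rule, so that the 2 of 9 windows, 1 of 8 shores, 2 of 4 outer parts and 0 of 9 cores of these genes were at or below the background shares. The median KO minus WT difference of the 30 regions was 0.08 points, whereas over all genes the median was 1.69 points for windows and 0.10 points for cores.

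**Figure D5:**
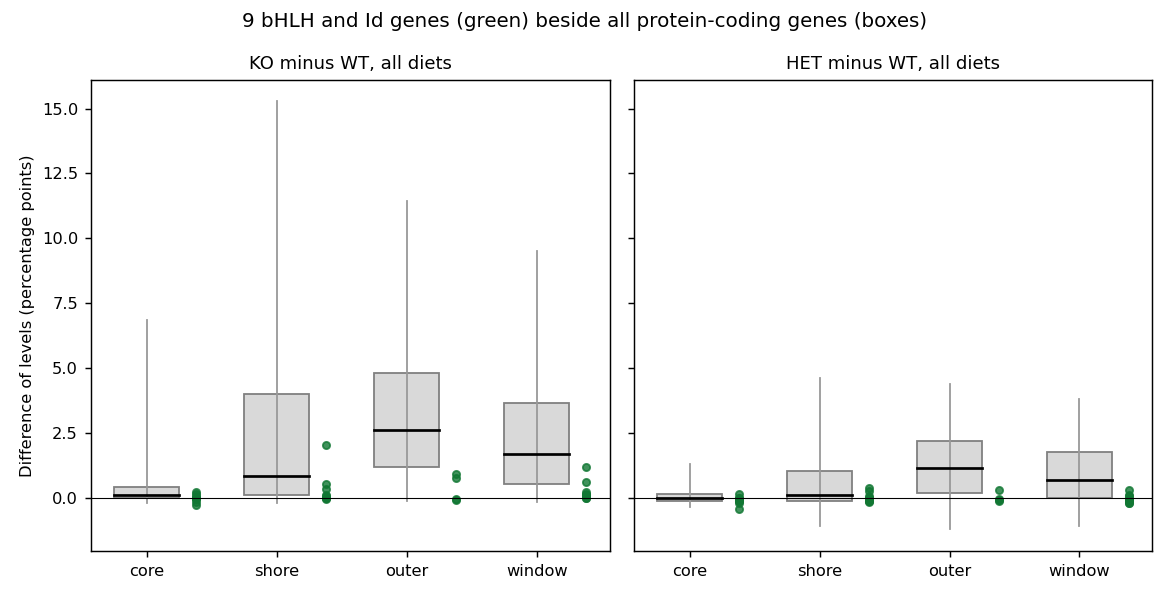
Difference of methylation levels (percentage points) between KO and WT (left) and HET and WT (right) over all diets. Green points are the 9 genes where measured, boxes span the middle quartiles of all protein-coding genes with the median as a line, and whiskers reach the 5th and 95th percentiles. The highest green point is the Olig1 shore at 2.01 points, and the other shores lie at or under 0.54 points.

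Within single diets, the Olig1 shore was again higher in KO by this unfiltered rule. The difference was 3.13 points on 30 ppm (adjusted p = 0.0325, background 8.14%), 1.87 points on 3 ppm (adjusted p = 0.0078, background 33.9%) and 2.85 points on 0.1 ppm (adjusted p = 0.0261, background 20.6%). Each of the 3 was lost under some alternative. With 10 reads per CpG the 3 ppm difference was -0.0061 points (adjusted p = 0.95). With 1 embryo left out, the 30 ppm difference passed in 2 of 9 fits, those without KO replicate 1 and WT replicate 2, and its adjusted p reached 0.224 without WT replicate 1. It was also lost with 10 reads per CpG (1.38 points, adjusted p = 0.0519), with each embryo's own CpGs (adjusted p = 0.0606) and with the litter as a block (adjusted p = 0.0865), but not without the libraries that went against their labels (adjusted p = 3.92e-04). The 0.1 ppm difference passed in 5 of 7 fits and was lost without WT replicate 1 (adjusted p = 0.208) and without WT replicate 2, whose Tet1 level went against its label (adjusted p = 0.133), with each embryo's own CpGs (adjusted p = 0.0743) and with the litter as a block (adjusted p = 0.114). On 3 ppm the difference was 4.15 points without KO replicate 4, the embryo that lacks the other 5 CpGs of the stretch. The Neurod1 outer part was higher on the 3 ppm diet (1.04 points, adjusted p = 0.0161, background 34.4%).

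Neurod1, which promotes neuronal differentiation downstream of the neurogenins, showed small differences, none of them called, at the end of its coding sequence. Its outer part stood at 0.78% ± 0.29 in WT (lowest, median and highest 0.30, 0.82 and 1.30%), 0.94% ± 0.65 in HET (0.19, 0.70 and 1.83%) and 1.51% ± 0.51 in KO (0.86, 1.42 and 2.66%). The groups overlapped. Of 13 Neurod1 CpGs tested, 4 within 100 bp of each other passed the adjusted p between KO and WT with differences of 3.40 to 5.24 points, too small to be called, where 18.6% of CpGs were higher by that rule over the genome. The first 3, at +2695, +2725 and +2782, are in the stretch printed above and the last, at +2794, lies just beyond it in the UTR. Pooled, they read 0.78% ± 0.80 in WT, 0.43% ± 0.91 in HET and 4.85% ± 2.51 in KO, against 0.78, 1.01 and 1.09% in the other 23 CpGs of the outer part. These 4 were picked by the same test of KO against WT, so that their excess in KO followed from the choice and is a description. At +2725 (chr2:79454026), in the coding exon, 10 of 16 KO embryos read between 4.00 and 23.1% and 6 read 0%, while 7 of 9 WT embryos read 0% and the others 2.50 and 5.56%. The highest KO value was 3 of 13 reads, and most of the other nonzero values were 1 methylated read. An exact permutation test of this CpG, picked as the most different shared CpG of the gene, gave p = 0.0582. Without the 3 libraries that went against their labels the exact permutation gave p = 0.0985, and the Neurod1 CpG at +2695 no longer passed (adjusted p = 0.101). This CpG also lies inside the longer Cerkl gene on the same strand, outside its exons, and in an exon of the lincRNA Gm26755 on the other strand.

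At Olig2, which specifies motor neuron and oligodendrocyte progenitors, 1 CpG far downstream was called between KO and HET but not between KO and WT. It lies at chr16:91231106, 5649 bp from the gene start. In WT embryos this CpG read 9.30, 14.6 and 7.69% on 30 ppm, 10.1, 14.8, 10.0 and 9.52% on 3 ppm, and 27.8 and 14.3% on 0.1 ppm. HET embryos ranged from 0 to 13.3% with a median of 6.48%, and KO embryos from 7.14 to 37.5% with a median of 21.1%. The means were 13.1% ± 6.1 in WT, 6.88% ± 4.58 in HET and 21.0% ± 9.0 in KO. KO exceeded HET by 13.9 points, which was called (adjusted p = 0.0037, with 7.01% of CpGs called over the genome), and in the exact permutation test p was 2.54e-04. KO exceeded WT by 6.82 points (adjusted p = 0.077), with an exact permutation p of 0.0683, and the HET minus WT difference was -7.10 points, with an exact permutation p of 0.0189. This CpG was picked as the most different shared CpG of its gene between KO and WT, and the permutation p-values take no account of that choice. Without the 3 libraries that went against their labels the KO minus HET difference of this Olig2 CpG was 14.5 points (adjusted p = 0.0026), and the exact permutation p was 0.207 for KO against WT and 0.0426 for HET against WT. The highest WT value, 27.8%, came from 18 reads, and on that diet, 0.1 ppm, the KO minus WT difference was -0.73 points. The outer part of Olig2 as a whole stood at 1.12% ± 0.40 in WT and 2.00% ± 0.72 in KO, and without this CpG at 0.76% ± 0.43 and 1.40% ± 0.51. A CpG in the UTR at +2049 was higher in KO than in WT by 2.67 points (adjusted p = 0.0192), too little to be called, at means of 0, 1.17 and 2.58% in WT, HET and KO.

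The neurogenins, which start neurogenesis, and Atoh1, which specifies rhombic lip progenitors of the hindbrain, showed small differences at single CpGs. Among CpGs read in all 35 embryos, the largest at Neurog1 was a coding CpG at +267, at 0% in WT, 0.96% in HET and 2.41% in KO (adjusted p = 0.04, and 0.0715 without the 3 libraries that went against their labels). At Neurog2 it was an intronic CpG at +337, at 0.30, 1.49 and 2.15% (adjusted p = 0.0156). At Atoh1 it was a coding CpG at +1099, at 0.10, 0.22 and 2.87%, which did not pass. Every nonzero value at the Neurog1 CpG, in HET and KO embryos, was 1 methylated read, and the highest KO value, 16.7%, was 1 of 6 reads. Of the CpGs tested between KO and WT, 1 of 10 at Neurog1, 1 of 23 at Neurog2 and 0 of 9 at Atoh1 passed the adjusted p. Over the 9 windows 10 of 195 passed, whereas 18.6% of CpGs were higher in KO by that rule over the genome. The Atoh1 CpG at -1605, read in 28 embryos and not tested over all diets, averaged 33.6% in WT, 32.3% in HET and 51.2% in KO, but the direction differed between diets. WT and KO stood at 34 and 54.2% on 30 ppm, at 19.7 and 51.9% on 3 ppm, and at 60.7 and 46.4% on 0.1 ppm. The highest WT values at this CpG, 57.9% (19 reads) and 71.4% (7 reads), came from the 2 libraries labelled WT whose Tet1 level went against their labels. The other WT embryo on 0.1 ppm, replicate 1, read 50% (8 reads), also above the KO mean there. On the 3 ppm diet alone, 1 CpG downstream of Neurog1 at +4199 was called at 25 points (adjusted p = 0.0092) and 1 upstream of Atoh1 at -1342 at 10.53 points (adjusted p = 0.0147), with 9.72% of CpGs called over the genome. The Atoh1 CpG differed by -1.03 points on each of the other diets, and the Neurog1 CpG by 4.00 points on 30 ppm (adjusted p = 0.875), while on 0.1 ppm it was not tested. The Neurog1 CpG belongs to a methylated stretch downstream of the gene, where 6 CpGs averaged 57 to 86.8% in WT and 62.5 to 92.2% in KO.

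Hes1 and Hes5, the main Notch effectors of the neural tube, had window means under 1% in every genotype. All 201 Hes1 CpGs read in every embryo lay under 5% in each genotype, and its window stood at 0.65% ± 0.10 in WT, 0.60% ± 0.14 in HET and 0.61% ± 0.13 in KO. The Hes5 window stood at 0.75% ± 0.14, 0.69% ± 0.14 and 0.74% ± 0.26. Of 26 CpGs tested at Hes1 and 28 at Hes5, 0 passed the adjusted p between KO and WT, where 18.6% of CpGs were higher in KO by that rule over the genome. Without the 3 libraries that went against their labels the Hes5 CpG at +973 did pass (1.85 points, adjusted p = 0.0224). Among CpGs read in all embryos, the one that differed most at Hes1, in an intron at +1896, read 0.25% in WT and 2.45% in KO, and that of Hes5, in an intron of the neighbouring gene Pank4, read 3.49% in WT and 0.45% in KO. The annotated 5' end of Hes1 lies 956 bp before its coding transcript. With the promoter placed at the coding transcript, the Hes1 shore differed by -0.05 points (adjusted p = 0.452), and its core held 1 shared CpG and was not measured.

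Id4, which keeps neural progenitors dividing, had an unmethylated core, with 89 shared CpGs, and methylated flanks. Its window stood at 1.27% ± 0.26 in WT, 1.37% ± 0.23 in HET and 1.34% ± 0.22 in KO. Of 25 CpGs tested between KO and WT, 0 passed the adjusted p, where 18.6% of CpGs were higher in KO by that rule over the genome. The most different shared CpG, 7554 bp from the start and downstream of the gene, was methylated in every embryo, at 88.1% ± 6.9 in WT, 93.4% ± 3.8 in HET and 94.6% ± 3.6 in KO. Upstream, 2 CpGs at -1472 and -1441 were read in 29 embryos and so entered no pooled test. They stood at 21.4, 23.9 and 42.4% and at 14.7, 16.1 and 29.9% in WT, HET and KO. At its 5' end Id4 overlaps the antisense gene A330033J07Rik and the lincRNA Gm49291, both on the other strand, and methylation calls do not separate overlapping genes.

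No difference between HET and WT embryos passed the adjusted p at these genes, although the Olig2 CpG at +5649 had an exact permutation p of 0.0189 (adjusted p = 0.657 in the model). That CpG was picked for its KO minus WT difference, and the permutation p takes no account of the choice. Of 30 regions measured over all diets, 0 passed the adjusted p in the quasi-binomial model without the SD filter and 0 passed an unadjusted p under 0.05, and the differences lay between -0.43 and 0.37 points. Over all genes 0% of windows, 0.09% of cores, 0.214% of shores and 0.241% of outer parts were higher in HET by that rule. Of 135 single CpGs tested, 0 were called (0.0118% over the genome), 0 passed the adjusted p and 8 passed an unadjusted p under 0.05, 3 of them higher in HET. Between KO and HET, 4 of 29 regions were higher in KO at an adjusted p under 0.05: the Olig1 shore (1.96 points, adjusted p = 5.99e-05), the Olig1 window (1.16 points, adjusted p = 5.75e-04), the Olig2 outer part (0.84 points, adjusted p = 0.0168) and the Neurod1 outer part (0.48 points, adjusted p = 0.0375). The background shares were 36% of shores, 24.9% of windows and 32.9% of outer parts. With the litter as a block the last 2 were lost (adjusted p = 0.0532 and 0.0987).

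Without the SD filter, no region of these genes passed the adjusted p between diets. With the filter, 0 of them were tested in each comparison except 0.1 against 3 ppm in KO, where 1 was. These tests cannot show that FA left the regions unchanged. In WT embryos the 30 regions differed by -0.77 to 1.04 points between 30 and 3 ppm and by -1.14 to 0.97 points between 0.1 and 3 ppm. In KO embryos the ranges were -0.47 to 0.94 points for 30 against 3 ppm, and -0.70 to 3.61 points for 0.1 against 3 ppm over 31 regions, the last value from the 3 CpGs of the Neurog1 outer part (adjusted p = 0.998). Over the 6 diet comparisons within a genotype, 0 regions passed the adjusted p in the quasi-binomial model, and 0 or 1 in each passed an unadjusted p under 0.05. Among all genes 0% of windows passed in either direction in each of these comparisons. The Olig1 shore changed by 1.04 points in WT and 0.94 points in KO from 3 to 30 ppm, both less than the SD of 1.09 and 1.21 points among embryos of the 30 ppm groups. This SD describes the spread of embryos and does not test the change. The 3 shared CpGs of the upstream tile, part of this shore, moved the other way, from 35.7 to 32.7% in WT and from 59.0 to 54.5% in KO. The cause of this discrepancy was not tested. The KO minus WT difference of the 30 regions changed by -0.89 to 0.68 points from 3 to 30 ppm and by -0.45 to 0.72 points from 3 to 0.1 ppm, with 0 passing the adjusted p, and 2 and 0 an unadjusted p under 0.05.

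Other genes of the same network gave a background for the 9. Among 25 other neural and progenitor bHLH genes, 24 windows were measured and 8 tested between KO and WT, 6 of them passed the adjusted p in the quasi-binomial model, all higher in KO, and 2 were called, where over all genes 38% of tested windows were higher and 6.91% called. Those were Nhlh1, a neuronal bHLH factor, at 7.57% in WT and 29.6% in KO, and Hes2, at 6.68 and 17.1%. The Hes2 shore (6.40 and 18.0%) and the outer parts of Nhlh1 and of Bhlhe22 (43 and 70.0%) were called as well. Neurog3, at 1.70 and 5.90%, passed without being called. Among 16 Notch pathway genes, 16 windows were measured, 10 tested, 4 passed and 0 were called, and the shores of the coactivator Maml2 (8.39 and 24%) and of the Numb homologue Numbl (6.32 and 18.3%) were called, where 24.1% of shores and 8.25% of outer parts were called over all genes. The numbers of shores and outer parts tested in the lists are not given here, so the calls among them cannot be set against these shares. None of either list was lower in KO. The median window difference was 0.71 points over the other bHLH genes and 2.47 points over the Notch genes, against 0.11 points over the 9. By the mean absolute difference of the window level over the 9 groups, the genes nearest to Olig1 were Rwdd2b (0.21 points), Htr1a (0.25 points) and Ccdc86 (0.25 points).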

How the data were processed

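Oxidative bisulfite RRBS libraries of single E11.5 brains were analysed. Per the methods of the study, the authors trimmed reads with Trim Galore 0.6.10, aligned them to mm10 with Bismark 0.24.1, removed duplicates with UMI-tools and used methylKit 1.26.0 for their own comparisons. Per the file headers and values, the deposited files give for each CpG the methylated fraction and the count of reads covering it, and the methylated reads were computed as their product. The authors' 9 region lists hold results of their own comparisons and were not used. Intervals cover counting error only, since reads are not all independent molecules.

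Counts were summed over CpGs read at least 5 times in every embryo of a comparison, in the window (gene body and 3 kb each side, GENCODE vM21), the core (within 500 bp of the start), the shore (beyond the core to 2000 bp), the outer part and 1 kb tiles. Regions needed 3 CpGs and an SD of 2 points. A quasi-binomial logistic model with diet as a covariate was fitted over all autosomal protein-coding regions of a kind. Its dispersion was moderated as in limma and kept at 1 or above, and two-sided F test p-values were adjusted by Benjamini-Hochberg over all regions of that kind. A call needed an adjusted p under 0.05 and 10 points. A pooled difference is the mean of the differences within diets. The same model was run on single CpGs and without the SD filter, and single CpGs and permutations were repeated without the libraries that went against their labels, all chosen after the data were seen. Single values were also tested by exact permutation of labels within diets. The single CpGs so tested were the most different ones of their genes between KO and WT, and these p-values take no account of that choice. The model was tested on simulated data before use. Python 3.11.15, numpy 2.4.6, scipy 1.17.1 and pandas 2.3.3 were used.

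The 9 genes and the lists were chosen with earlier results of these data known. All 9 were named, each with its most different CpG among those read in all 35 embryos, its most different tested tile, and for the gene with the largest window difference its 3 nearest genes. The TP number in the sample titles was read as the litter. Deviations from the group means correlated by a median r of 0.09 in 14 pairs of KO and WT littermates and by -0.05 in 34 pairs of the same diet from other litters, and the fit with litter as a block is given where it changes a call. No 2 libraries were alike: at most 4.34% of the compared values were identical in any of 630 pairs.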

Additional observations from a re-analysis of the deposited data

Results flagged for a closer look

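In 69 groups of 4 to 10 embryos, the highest or lowest embryo was compared with the others by Dixon's test at the 95% level, and 4 embryos stood apart. Chance passes this test in about 1 of 20 groups of continuous values. That rate does not hold where single reads set the values, since 1 nonzero value among values of 0 always passes. The Id4 window of KO, 0.1 ppm, replicate 3 read 0.88%, while the other 4 embryos read 1.32 to 1.45%. At the Neurod1 CpG at +2725, HET, 30 ppm, replicate 1 read 4.35% (1 of 23 reads) where the others of its group read 0%. There KO, 3 ppm, replicate 1 read 0% (0 of 12 reads) where the others read 4.35 to 5.00%, each by 1 methylated read. At the Olig2 CpG at +5649, WT, 3 ppm, replicate 2 read 14.8%, while the others read 9.52 to 10.1%. None of the 4 is a library whose Tet1 level went against its label.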

How the results depend on the processing

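The counts of called regions, tiles and CpGs stayed within 1.5 times of the reported ones under the alternatives run, with these exceptions. With the core widened to 1000 bp and the shore to 3000 bp, 1 region was called between KO and WT, the Olig1 shore (25.6 points, adjusted p = 1.06e-07). Its difference is that of the upstream tile over the same 3 CpGs. With each embryo's own CpGs, 1 region was called on the 3 ppm diet. Without 1 embryo, the called tiles on 30 ppm numbered 0 to 1, and the difference of the Olig1 tile there ranged from 17.3 to 22.5 points, with the call lost without WT, 30 ppm, replicate 1 and without KO, 30 ppm, replicate 5. The called single CpGs numbered 3 to 8 without 1 embryo, with 8 reached without KO, 3 ppm, replicate 4, and 0 with a minimum of 10 reads, where the pooled Olig1 tile could not be fitted. At that minimum the pooled Olig1 shore difference was 0.12 points (adjusted p = 0.446), against 2.01 points, and 3 differences changed sign: the Olig1 shore on 3 ppm (-0.0061 points), the Olig1 shore in KO between 0.1 and 3 ppm (-0.23 points) and the Olig2 outer part between HET and WT (0.051 points). No Olig1 upstream CpG was read 10 times in every WT and KO embryo. In KO embryos on 3 and 0.1 ppm, those at -1276 and -1264 were read at least 12 and 17 times. For the change of sign in KO between these diets and for the Olig2 outer part the cause was not tested. Without KO, 3 ppm, replicate 4 the pooled Olig1 shore difference was 3.43 points and the Olig1 window difference 2.04 points. With the litter as a replicate block, the Olig1 tile kept its difference of 25.6 points (adjusted p = 3.33e-07), the called tiles stayed at 1 and the called CpGs at 3, and the calls lost are given in the report. Groups of 2 WT embryos on 0.1 ppm limit what that diet can show.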

Other observations

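The Id4 upstream flank held further CpGs that were read in only 11 to 17 embryos and entered no test. Of these 8 CpGs, between -1538 and -879 bp, 6 had a higher mean in KO than in WT, with a median difference of 14.5 points and a range of -22.4 to 44.0 points. Downstream of Olig1, in the 3 kb flank, the CpG at +3493 read 92.9% in WT, 84.2% in HET and 100% in KO, and the CpG at +3502 read 67.9, 54.4 and 63.1%, in 13 to 21 embryos. These CpGs were chosen by their level after the values were seen.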
